A study of Columba livia with 9 samples.

Results

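In the bursa of Fabricius (BF), 69 mRNAs passed a rule for a trough at 13D, the middle of the 3 ages sampled. After each library was scaled to a common median, their 3 libraries of 13D lay below all 6 of 1D and 26D, by a minimum ratio of the stage means. On the unscaled TPM 2 of them passed. They are 69 of 13072 listed mRNAs, or 0.687% of the 10044 mRNAs with a mean of at least 2 TPM. TPM is the share of a library's RNA that a transcript makes up, corrected for its length. The study sequenced the BF of 9 female White King pigeon squabs, with 3 squabs aged 1 day (1D), 3 aged 13 days (13D) and 3 aged 26 days (26D). Total RNA of frozen BF samples was depleted of ribosomal RNA and made into strand-specific libraries, each from a different squab. No treatment or genotype differs between the groups, which share breed and sex and differ in age. Stage is the only factor in the labels, and BF tissue was sequenced, so fewer cells of a type and less RNA per cell cannot be told apart.

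Each TPM was first divided by the median of its library over the 10027 mRNAs above 0.5 TPM in all 9 libraries. Levels below are these ratios multiplied by the common median of 12.9 TPM, and are called scaled TPM. A member had a mean of at least 2 TPM, all 3 libraries of 13D below all 6 others, and a log2 ratio of at least 0.5 between the lower of its means at 1D and 26D and its mean at 13D. The rule allowed up to 150 mRNAs and 69 passed. The members were thus chosen by their low scaled TPM at 13D, and all values of 13D against 1D or 26D given for them are a description without a test. Of the mRNAs of sufficient level, 122 had separate libraries at 13D and 53 of these missed the ratio. The last members inside were LOC102098315 (log2 ratio 0.52) and SLC35G1 (0.51), and the first mRNAs outside were C1H11orf54 (0.50) and RAD51AP1 (0.49). The mirrored rule, for mRNAs highest at 13D, took 67. The rule was also run with each library left out, which leaves fewer libraries to separate. Apart from small shifts of the library medians, a member could then fail only the mean or ratio minimum. Staying a member thus does not test the separation of 13D.

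The BF is the organ of birds in which B cells multiply and diversify their immunoglobulin genes. Its B cells lie in follicles, within connective tissue, smooth muscle and vessels and under a lining epithelium, and macrophages take up the B cells that die there. To order the results, 33 of the 69 members were put into 6 groups by known role, after their values were seen. The groups are lysosomal and macrophage genes, the secretory pathway of the endoplasmic reticulum (ER), glycan synthesis, secreted or surface signals, thyroid hormone binding and intracellular signalling. The other 36 members, some with known roles, are in no group. Single genes named outside the rule for named genes were likewise chosen then.

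Among the 69 members, 53 had a gene symbol, 14 a LOC number and 2 an NCBI gene ID alone, and 66 were above 0.5 TPM in all 9 libraries. Their log2 ratio had a median of 0.83 and a range of 0.51 to 3.26, and 20 members reached a ratio of 1. The mean at 13D was 45.4% of the mean at 1D at the median of the members, and 54.2% of the mean at 26D. The mean at 26D was 81.7% of that at 1D, below it for 51 members and above it for 18. Members ranged from 1.96 to 515 scaled TPM in their mean over the 9 libraries. Their median was 8.26 scaled TPM, against 13.4 for all mRNAs of sufficient level.

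**Figure D1:**
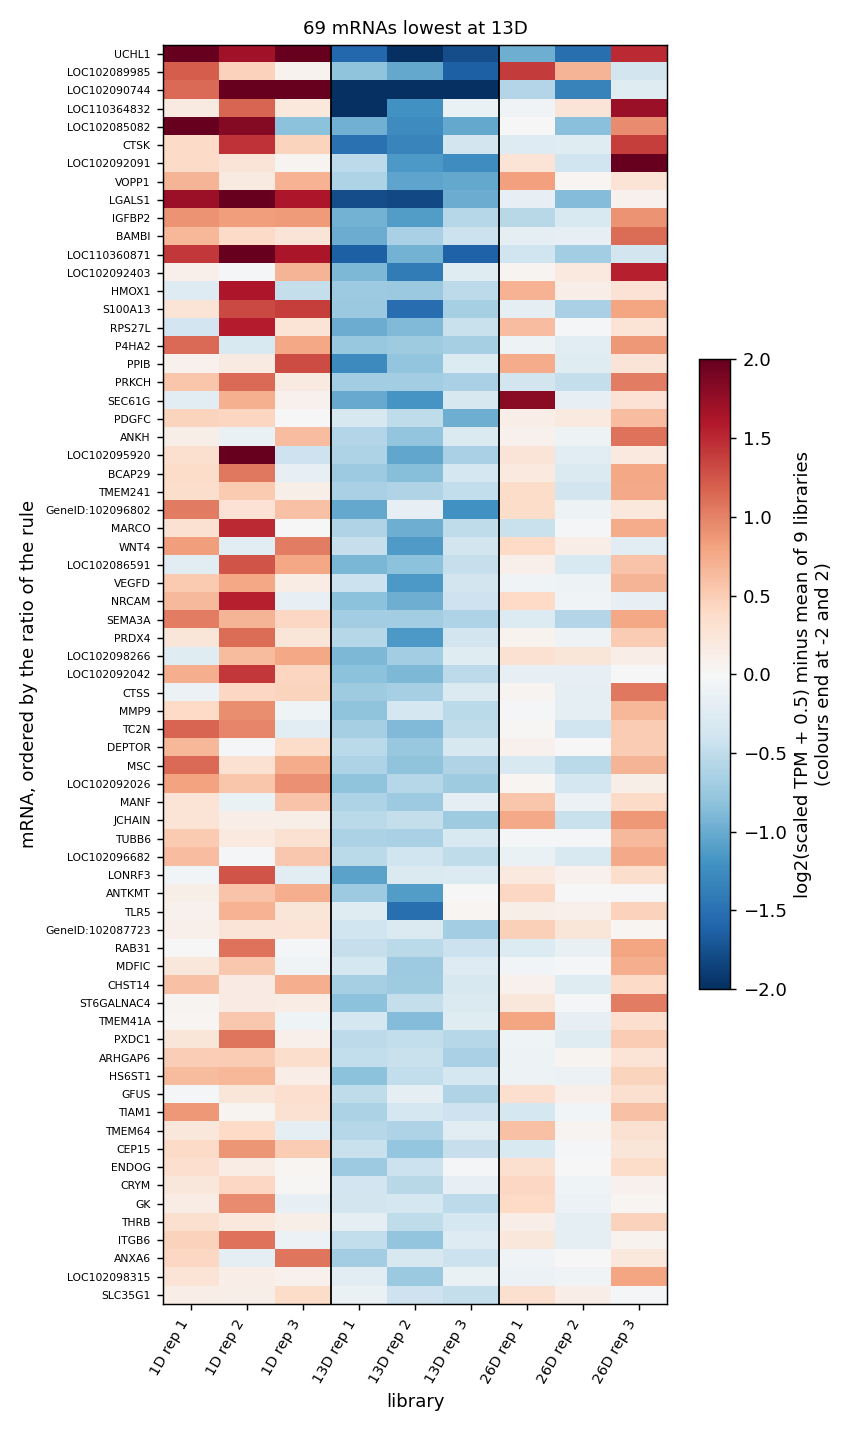
Level of the 69 members in the 9 libraries (columns, by stage; rows ordered by the ratio of the rule), as log2(scaled TPM + 0.5) minus the mean of the mRNA. The 3 columns of 13D are below the other 6 for every member by selection, and within 26D the column of replicate 3 is the highest in 48 members.

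Library medians lay between 5.95 TPM (26D replicate 1) and 19.9 TPM (1D replicate 1). On the deposited TPM without scaling, 7 mRNAs passed the rule, and 2 of them were members, VOPP1 and SEC61G. On that scale 50 members had all libraries of 13D below those of 1D, 2 had all of 13D below those of 26D, and the mean at 26D was above that at 13D for 63. How many of all mRNAs were separate in these ways was not counted. As the members were also chosen by low values at 13D, these counts do not set them apart from other mRNAs. Over the 10044 mRNAs of sufficient level, the limma log2 fold change in 26D vs 13D had a median of -0.60 on that scale. It was positive for 639 of them. Median-of-ratios factors kept 63 of the 69 and lost IGFBP2, JCHAIN, TIAM1, THRB, LOC102098315 and SLC35G1. Ranks within a library, which need no factor and were added after the data were seen, separated the stages for 51 members and for 123 mRNAs in all. TPM carries no read counts, so the number of reads behind a single value is unknown. The paper lists the mapped reads of each library, and the mapping ratio was lowest in 1D replicate 2. The B lineage markers, with 26 of 33 measured and none at 0 in all libraries, summed to between 2066 and 2704 scaled TPM at 1D, 3756 and 4189 at 13D, and 4636 and 6290 at 26D, so the defining markers of the labelled organ were present at each age.

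The lysosomal and macrophage group had 6 members, CTSK, CTSS, MARCO, MMP9, TLR5 and HMOX1, with means at 13D between 27.8% and 56.0% of 1D. CTSK (GeneID:102096035), which encodes cathepsin K, a lysosomal protease that cleaves collagen, had 33.8, 71.1 and 35.6 scaled TPM at 1D, 8.89, 10.1 and 20.0 at 13D, and 21.7, 21.9 and 68.5 at 26D. The highest library of 13D was close to the lower pair of 26D, and replicate 2 of 1D and replicate 3 of 26D stood far above the rest of their stage. CTSS, the neighbouring gene in the RefSeq order, encodes cathepsin S, which trims the invariant chain of MHC class II. CTSS had 19.1, 27.7 and 28.5 scaled TPM at 1D, 12.4, 12.9 and 16.9 at 13D, and 21.5, 18 and 43.6 at 26D. Replicate 3 of 26D was the highest of all 9 libraries for CTSS.

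MARCO, a scavenger receptor of macrophages, had 9.75, 23.0 and 7.86 scaled TPM at 1D, 4.99, 3.75 and 5.35 at 13D, and 5.59, 7.70 and 13.4 at 26D. The gap between the lowest 26D library and the highest 13D library of MARCO was narrow, a ratio of 1.05. MMP9, a gelatinase that myeloid cells release, had 6.31, 9.28 and 4.36 scaled TPM at 1D, 2.46, 3.53 and 3.06 at 13D, and 4.53, 4.06 and 7.70 at 26D. TLR5, the receptor for flagellin, had 4.4, 7.01 and 4.98 scaled TPM at 1D, 3.42, 1.13 and 4.23 at 13D, and 4.50, 4.43 and 5.82 at 26D. Both kept a separate 13D with small gaps, and 13D replicate 2 alone held the deep value of TLR5.

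HMOX1, the enzyme that opens the heme ring, had 9.02, 34.2 and 7.71 scaled TPM at 1D, 6.36, 6.31 and 7.38 at 13D, and 17.8, 12 and 13.4 at 26D. Its mean at 1D rested on replicate 2, and its other pair of 1D libraries was near 13D and below 26D. Replicate 3 of 26D was the highest 26D library in 5 of these 6 members. Without it the rule kept 3 of the 6, and TLR5, HMOX1 and CTSK were these 3. CTSK alone stayed a member whichever library was left out.

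The secretory pathway group had 7 members, and all 7 stayed members whichever library was left out. Leaving out a library makes the separation of 13D easier to pass, so this does not test it. JCHAIN was lost with median-of-ratios factors and on ranks, and SEC61G alone of the 7 passed on the deposited TPM. SEC61G (GeneID:102096803), a subunit of the channel through which new proteins enter the ER, was the most abundant member, with 366, 694 and 450 scaled TPM at 1D, 212, 189 and 341 at 13D, and 1484, 378 and 522 at 26D. Its mean at 26D rested on replicate 1, which was above the next library by more than 2 times after scaling. Scaling multiplied the TPM of replicate 1 of 26D by 2.17 and that of replicate 3, the next library, by 1.05. PPIB, cyclophilin B, an ER enzyme that helps collagen and other proteins to fold, had 200, 212 and 463 scaled TPM at 1D, 77.8, 109 and 155 at 13D, and 313, 159 and 226 at 26D. PPIB came close to an overlap, as its highest library of 13D and its lowest of 26D differed by a ratio of 1.03.

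PRDX4, the peroxiredoxin of the ER, had 102, 186 and 102 scaled TPM at 1D, 57.7, 38.5 and 66.7 at 13D, and 89.8, 80.05 and 123 at 26D. MANF, a protein that cells make and release under ER stress, had 70.6, 52.9 and 86.0 scaled TPM at 1D, 37.6, 34.9 and 50.7 at 13D, and 85.5, 53.4 and 75.6 at 26D. MANF averaged 69.8 ± 16.6 scaled TPM at 1D, 41.1 ± 8.46 at 13D and 71.5 ± 16.4 at 26D (SD, n = 3 each), with overlapping libraries at 1D and 26D. JCHAIN, the chain that joins IgM and IgA into polymers, belongs to the B lineage list. Of the 25 other genes of that list, 22 had positive and 3 negative limma log2 fold changes in 13D vs 1D. JCHAIN had 413, 375 and 371 scaled TPM at 1D, 234, 244 and 209 at 13D, and 577, 250 and 625 at 26D. Replicate 2 of 26D was just above 13D, while the other 26D libraries were above all of 1D. P4HA2, a subunit of the enzyme that hydroxylates collagen prolines, had 12.3, 4.22 and 9.51 scaled TPM at 1D, 2.98, 3.06 and 3.21 at 13D, and 4.97, 4.49 and 10.1 at 26D. BCAP29, a membrane protein of the ER, averaged 46.9 ± 20.1 scaled TPM at 1D, 21.2 ± 4.06 at 13D and 40.6 ± 15.1 at 26D (SD, n = 3 each). The lowest 26D library was replicate 2 in all 7 members of the group.

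**Figure D2:**
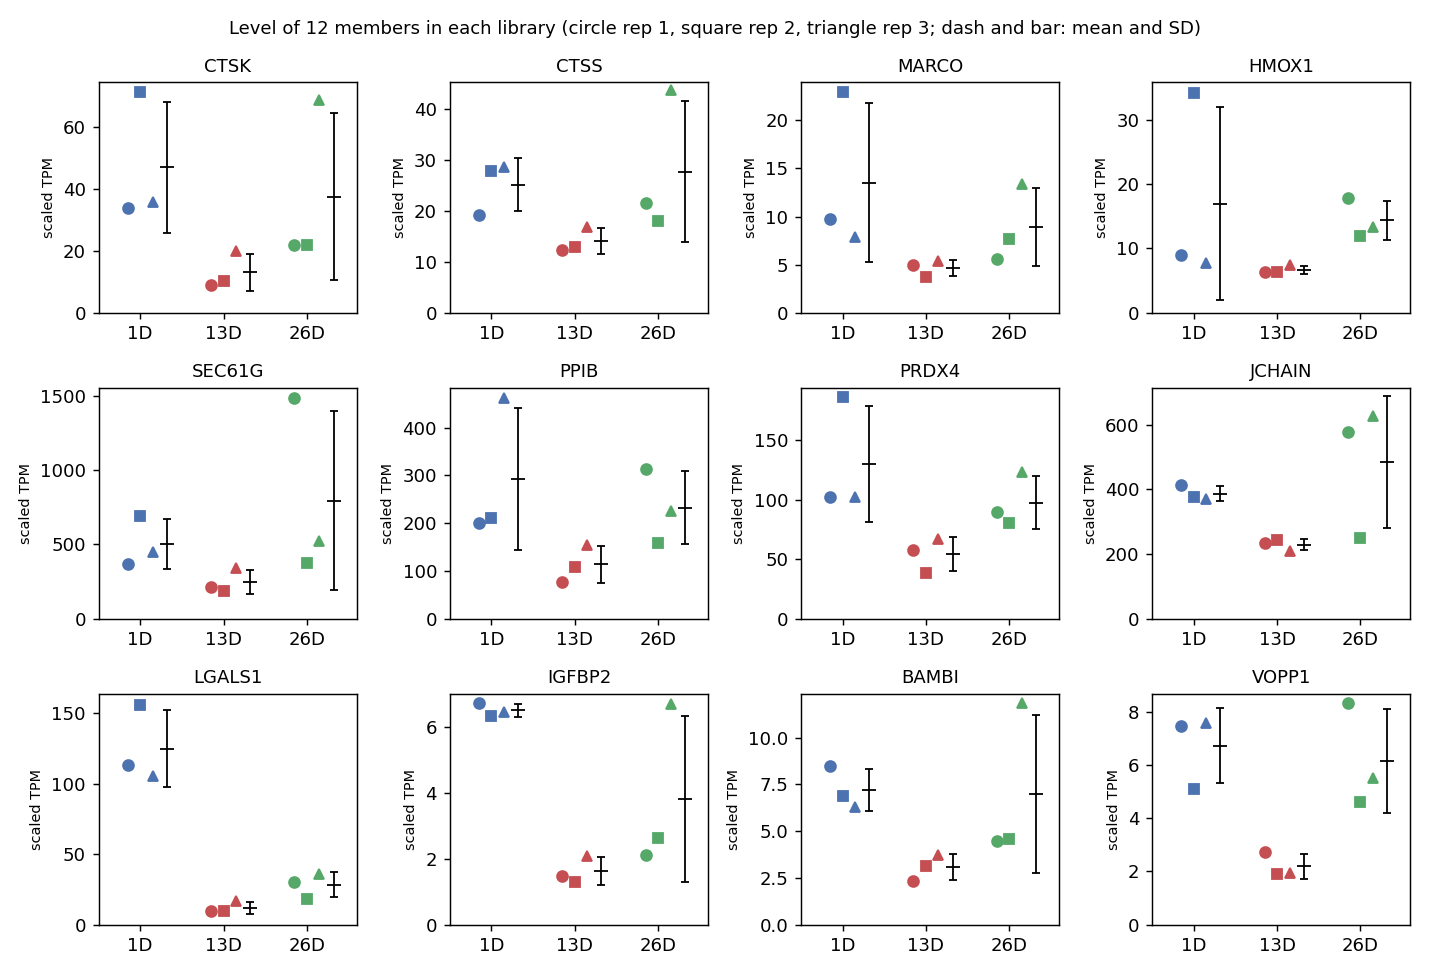
Scaled TPM of 12 members (1 panel each, axes from 0) by stage, with the single libraries and the mean ± SD over the 3 of a stage. The 13D libraries lie below the others by selection, and single libraries such as 26D replicate 1 of SEC61G (1484 scaled TPM) or 26D replicate 3 of CTSK (68.5 scaled TPM) set the mean of their stage.

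The largest ratio of all belonged to UCHL1, a ubiquitin hydrolase that is abundant in neurons. UCHL1 (GeneID:102083724) had 10.6, 5.98 and 8.78 scaled TPM at 1D, 0.178, 0 and 0.0870 at 13D, and 0.519, 0.211 and 5.15 at 26D. The value at 26D came almost wholly from replicate 3, and the other pair of 26D libraries was near the level of 13D. The list of neuron and glia genes, of which UCHL1 is a member, summed to 90.5, 41.4 and 155 scaled TPM at 1D, 7.24, 6.64 and 9.79 at 13D, and 6.36, 12.1 and 23.0 at 26D. The sum was highest among the 6 elder libraries in 26D replicate 3, and its part in the level of UCHL1 was not tested.

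The secreted and surface signals were 9 members, with means at 13D between 9.62% and 50.7% of 1D, and 7 of them stayed members whichever library was left out. LGALS1 (GeneID:102094205), galectin-1, a lectin that binds galactose-bearing glycans, had 113, 156 and 106 scaled TPM at 1D, 9.61, 9.45 and 17.0 at 13D, and 30.5, 18.5 and 36.2 at 26D. The libraries of both later ages were all far below 1D, and the gap between 13D and 26D was small beside it. IGFBP2, which binds insulin-like growth factors, had 6.71, 6.34 and 6.44 scaled TPM at 1D, 1.49, 1.28 and 2.1 at 13D, and 2.12, 2.63 and 6.70 at 26D. Replicate 3 of 26D had the level of 1D, whereas replicate 1 of 26D was 1.01 times the highest library of 13D.

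BAMBI, a membrane protein that blocks TGF-beta receptors, had 8.48, 6.87 and 6.32 scaled TPM at 1D, 2.35, 3.12 and 3.73 at 13D, and 4.48, 4.57 and 11.8 at 26D. WNT4, a Wnt ligand, had 4.10, 1.72 and 4.74 scaled TPM at 1D, 1.38, 0.679 and 1.49 at 13D, and 2.90, 2.32 and 1.71 at 26D. The lowest 26D library of WNT4 was replicate 3, unlike most of the members. PDGFC, a growth factor for fibroblasts, averaged 6.05 ± 1.12 scaled TPM at 1D, 3.07 ± 0.808 at 13D and 6.18 ± 1.28 at 26D (SD, n = 3 each). VEGFD, a growth factor of lymphatic vessels, averaged 7.91 ± 1.78 scaled TPM at 1D, 3.39 ± 1.07 at 13D and 6.35 ± 2.24 at 26D (SD, n = 3 each). SEMA3A, a repellent cue for axons and vessels, and ITGB6, an integrin chain of epithelia, had means at 13D of 33.3% and 47.5% of 1D. NRCAM, a cell adhesion molecule of neurons, averaged 8.50 ± 5.20 scaled TPM at 1D, 2.55 ± 0.625 at 13D and 4.77 ± 1.14 at 26D (SD, n = 3 each).

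Glycan synthesis had 4 members. CHST14 and HS6ST1 add sulfate to dermatan and heparan chains, ST6GALNAC4 adds sialic acid and GFUS makes the fucose donor. Their means at 13D were 46.2% to 63.1% of 1D and 48.0% to 63.2% of 26D. CHST14 had 19.8, 14.6 and 21.9 scaled TPM at 1D, 8.0, 7.72 and 10.3 at 13D, and 13.8, 11 and 17.1 at 26D. GFUS had 6.10, 7.41 and 7.96 scaled TPM at 1D, 4.25, 5.36 and 3.93 at 13D, and 8.01, 6.68 and 7.84 at 26D, so that its 1D and 26D libraries overlapped. THRB, a thyroid hormone receptor, and CRYM, a protein that binds thyroid hormone in the cytosol, were shallow members with means at 13D of 64.1% and 62.1% of 1D, and both were lost when some single library was left out.

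Intracellular signalling had 5 members, PRKCH, DEPTOR, TIAM1, ARHGAP6 and RAB31. PRKCH encodes protein kinase C eta, DEPTOR an inhibitor of mTOR, TIAM1 an activator of Rac and RAB31 a vesicle GTPase. PRKCH had 4.97, 7.69 and 3.72 scaled TPM at 1D, 1.82, 1.81 and 1.90 at 13D, and 2.41, 2.18 and 7.06 at 26D. Replicate 3 of 26D was the highest 26D library in all 5. VOPP1, a membrane protein of vesicles, had 7.48, 5.10 and 7.58 scaled TPM at 1D, 2.74, 1.89 and 1.95 at 13D, and 8.32, 4.59 and 5.52 at 26D. Its gap was among the wide ones, with the lowest 26D library at 1.68 times the highest 13D library, and it stayed a member on the deposited TPM. S100A13, a calcium-binding protein, had 15.9, 33.5 and 34.8 scaled TPM at 1D, 7.62, 4.24 and 8.04 at 13D, and 11.4, 8.16 and 23.1 at 26D.

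RPS27L, a close paralog of a ribosomal protein with which it can share reads, had 38.7, 152 and 61.3 scaled TPM at 1D, 25.4, 27.3 and 37.2 at 13D, and 78.6, 50.3 and 61.3 at 26D. The cytosolic ribosomal protein list summed to 294440 scaled TPM in 26D replicate 1, the highest library of 26D for both RPS27L and SEC61G, and to between 54778 and 131160 in the other 8 libraries. Scaling multiplied the TPM of 26D replicate 1 by 2.17, and that of the other libraries by 0.648 to 1.19, and these sums include that factor. The part of the ribosomal protein list in the levels of RPS27L and SEC61G was not tested. The transmembrane proteins TMEM241, TMEM41A and TMEM64 had means at 13D of 51.6%, 62.6% and 63.8% of 1D. They share a name stem, and TMEM241 alone stayed a member whichever library was left out. Members without a symbol reached high ratios too. LOC102089985 had a log2 ratio of 1.92 and LOC102090744 of 1.69, and LOC102092091 and LOC102092403 were, like CTSK and CTSS, next to each other in the RefSeq gene order.

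Within a stage, the same libraries were often the highest or the lowest. Replicate 3 of 26D was the highest 26D library in 48 of the 69 members (69.6%), against 31.4% of all 10044 mRNAs of sufficient level. Replicate 2 of 26D was the lowest in 49 members (71.0%, against 28.8%) and the highest in 0 (against 29.98%). At 13D, replicate 3 was the highest in 45 members (65.2%, against 37.2%). Replicate 2 of 1D was the highest 1D library in 32 members (46.4%, against 34.3%). The median SD of log2 levels within 26D was 0.44 for members and 0.30 for all these mRNAs, with 0.38 and 0.33 at 1D and 0.24 and 0.21 at 13D. The order of libraries within a stage is not fixed by the rule, but a lowest 26D library close to 13D limits which mRNAs can pass. Nor is the SD free of the rule, as a high library raises a stage mean that the ratio uses. The SD was not compared at matched level.

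**Figure D3:**
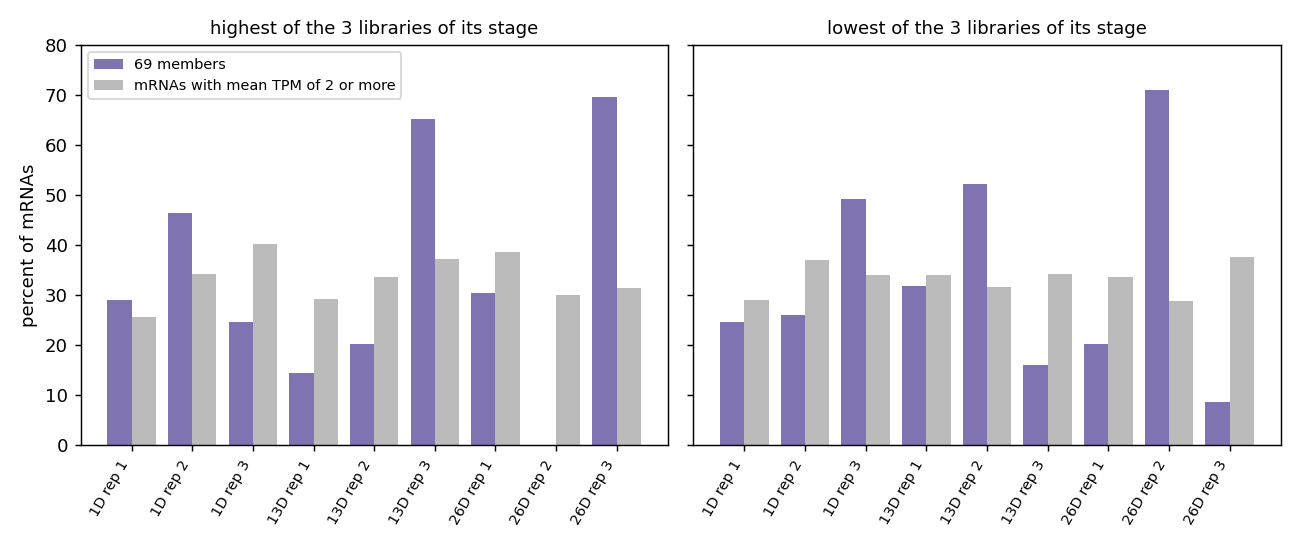
Percent of the 69 members and of the 10044 mRNAs with a mean of at least 2 TPM in which a library was the highest (left) or the lowest (right) of the 3 libraries of its stage. Within 26D, replicate 3 was the highest in 69.6% of members and replicate 2 the lowest in 71.0%.

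For 16 members, replicate 3 of 26D was over 2 times both other 26D libraries, among them UCHL1, CTSK, IGFBP2, BAMBI, S100A13, P4HA2, PRKCH, SEMA3A and CTSS. For 7 members, replicate 2 of 1D stood out in the same way within 1D, HMOX1, RPS27L and MARCO among them. The same was not counted over all mRNAs, and a single high library raises the stage mean that the rule uses. Several lists of other cell types were highest in 26D replicate 3 within 26D, with 33 of 34 matrix, 16 of 17 smooth muscle, 16 of 20 endothelial and 19 of 26 T and NK genes measured and none of them at 0 in all libraries. Extracellular matrix and fibroblast genes summed to 429, 349 and 932 scaled TPM in the 3 libraries of 26D, smooth muscle genes to 136, 145 and 387, endothelial genes to 60.3, 47.5 and 119, and T and NK lineage genes to 55.6, 31.5 and 136. At 13D the same 4 lists summed to 554 to 634, 178 to 281, 59.98 to 71.8 and 30.2 to 44.2 scaled TPM. At 1D they summed to 1738 to 2610, 702 to 1001, 116 to 154 and 27.8 to 41.5 scaled TPM. The matrix, smooth muscle and endothelial sums of 13D were all below those of 1D, as the members were by selection. Unlike the members, the matrix and smooth muscle sums of 26D replicates 1 and 2 were below all of 13D. limma called 28 of the 33 matrix genes, 15 of the 16 smooth muscle genes, 3 of the 16 endothelial genes and 0 of the 19 T and NK genes lower at 13D than at 1D. In some other cell type lists replicate 3 was not the highest of 26D. Myeloid and granulocyte genes summed to 590, 427 and 551 scaled TPM there, epithelial genes to 422, 373 and 411, and striated muscle genes to 4.59, 9.89 and 8.56. The part of the cell type lists in the members' levels was not tested.

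Leaving out 1 library at a time kept between 50 and 69 of the members. With fewer libraries to separate, more mRNAs can pass. A member can then be lost only by the mean or ratio minimum, or by a small shift of the library medians. Without 26D replicate 3, 60 mRNAs passed and 50 were members, and the 19 lost included MARCO, MMP9, CTSS, PRKCH, SEMA3A, HS6ST1, TIAM1 and THRB. Without 13D replicate 3, 292 mRNAs passed, 67 of them members, and without 26D replicate 2 the count was 213 with all 69. Without 13D replicate 1 it was 130 with 67 members. Whichever library was left out, 37 members stayed, and 17 more were lost by leaving out exactly 1 of the libraries. UCHL1, CTSK, VOPP1, LGALS1, IGFBP2, BAMBI, S100A13, RPS27L, P4HA2, PPIB, SEC61G, WNT4, PRDX4, MANF and JCHAIN were among the 37.

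**Figure D4:**
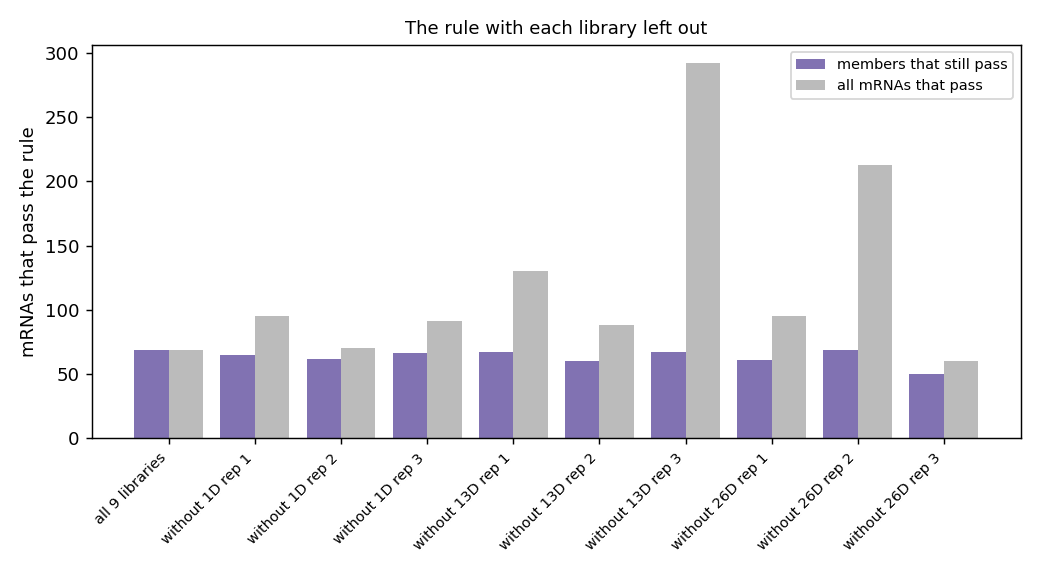
Number of mRNAs that pass the rule with all 9 libraries and with each library left out (grey), and how many of them are among the 69 members (purple). The members kept range from 50 without 26D replicate 3 to 69 without 26D replicate 2, while the mRNAs that pass range from 60 to 292.

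Most gaps between 13D and 26D were small. The lowest 26D library was a median of 1.15 times the highest 13D library over the members, and under 1.1 times for 28 of them. TIAM1 (1.00), LOC102098315 (1.01), THRB (1.01) and IGFBP2 (1.01) were the closest on this side. The lowest 1D library was a median of 1.29 times the highest 13D library, and under 1.1 times for 10 members. LOC102098266 (1.00) and TMEM64 (1.02) were the closest there.

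The contrast that did not choose the members was 26D vs 1D, which asks how far the level had returned. It was tested by limma on log2(scaled TPM + 0.5) over all 13072 mRNAs, and an mRNA was called where the adjusted p (Benjamini-Hochberg) stayed under 0.05 and the level differed by over 2 times. The rule did restrict it, since both stages had to lie above 13D. Members had a median log2 fold change of -0.26 and a range of -3.67 to 0.51. The median was 0.02 for all 13072 mRNAs and 0.12 for the 10044 of sufficient level. Shares of all mRNAs given for the stage contrasts are over the 13072, which include mRNAs below the level minimum. The log2 fold change was negative for 52 members and positive for 17. limma called 2 members lower at 26D, where 5.31% of all mRNAs were, and 0 higher, where 1.47% were. At an unadjusted p under 0.05 there were 7 members (10.1%), all lower, against 27.1% of all mRNAs. A call that was not made does not show that 26D equalled 1D.

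LGALS1 fell to 28.4 ± 9.08 scaled TPM at 26D, against 125 ± 27.3 at 1D (SD, n = 3 each). Its log2 fold change was -2.15 (standard error 0.29, limma adjusted p = 0.0129), and no library of 26D reached the lowest of 1D. LOC110360871 had 1.75, 1.32 and 1.79 scaled TPM at 26D, against 7.36, 17.6 and 8.65 at 1D. Its log2 fold change was -2.37 (standard error 0.36, limma adjusted p = 0.0159). Both calls were lost without 1D replicate 1, without 26D replicate 1 and without 26D replicate 2, with limma adjusted p over all alternatives from 6.3e-08 to 0.0601 for LGALS1 and from 8.1e-05 to 0.0890 for LOC110360871. The log2 fold change kept its sign in each of them.

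LOC102090744 had 8.44, 4.83 and 10.8 scaled TPM at 26D, against 28.7, 53.3 and 703 at 1D, a log2 fold change of -3.67 with limma adjusted p = 0.0636. Its mean at 1D was set by replicate 3. UCHL1 had a log2 fold change of -2.45 (limma adjusted p = 0.0696) and S100A13 of -1.0 (limma adjusted p = 0.174), so neither was called. The libraries of 26D were all below those of 1D for 8 members (11.6%, against 18.1% of all mRNAs), which were LGALS1, UCHL1, LOC110360871, LOC102090744, LOC102092042, LOC102092026, CEP15 and ARHGAP6. They were all above for 0 members, against 14.6% of all mRNAs. The highest log2 fold changes were those of LOC102092091 (0.51) and SEC61G (0.45), with limma adjusted p = 0.633 and 0.628.

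**Figure D5:**
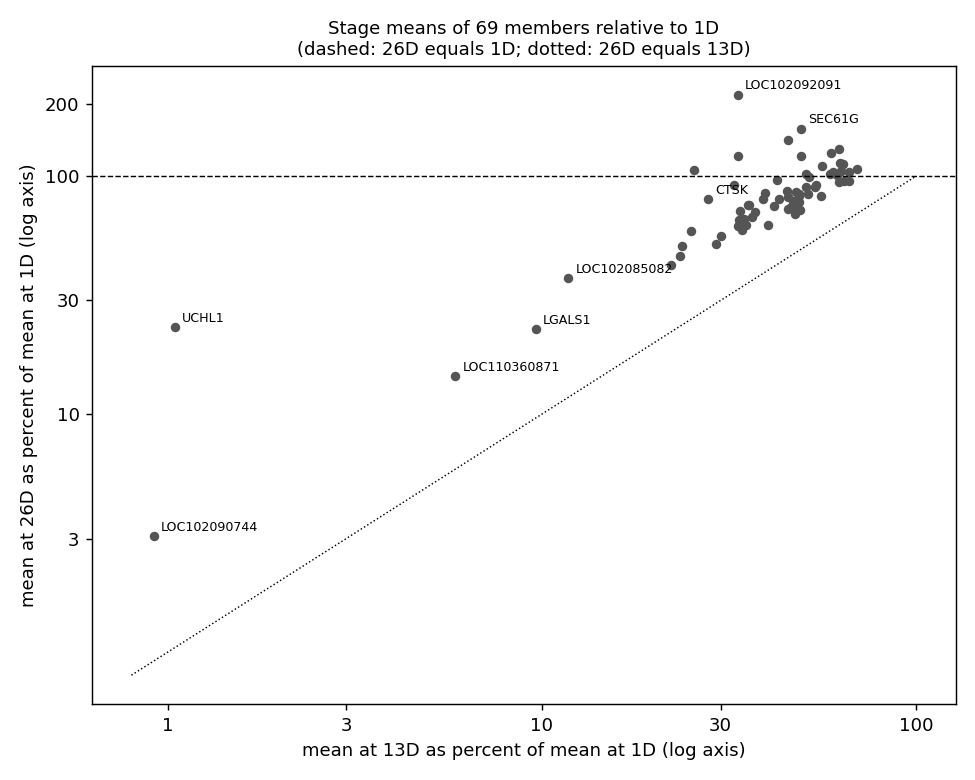
Mean scaled TPM of each member at 13D (x axis) and at 26D (y axis), both as a percent of its mean at 1D on log axes. Points under the dashed line (51 members) are lower at 26D than at 1D, all points are above the dotted line by selection, and LGALS1, UCHL1, LOC110360871 and LOC102090744 lie far below the dashed line.

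The contrasts with 13D chose the members, so their calls are given as a description. In 13D vs 1D, limma called 23 members lower (33.3%), where 7.53% of all mRNAs were, and 0 higher, where 1.97% were. At an unadjusted p under 0.05 there were 66 members (95.7%), all lower, against 32.3% of all mRNAs in either direction. In 26D vs 13D it called 0 members and 0 of 13072 mRNAs, so that 0% were called in either direction. The paper, by edgeR at the same thresholds, did report differentially expressed mRNAs between these ages, though far fewer than between 1D and either later age. The absence of limma calls thus does not show that the ages were equal. At an unadjusted limma p under 0.05, 56 members and 870 mRNAs in all differed in that contrast, all 56 higher at 26D and 504 of the 870.

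Of the 69 members, 9 belong to one of 32 lists of pathways and cell types, and the other genes of these lists were compared with them. Over all mRNAs of sufficient level, 27.0% had their lowest stage mean at 13D, and 6.15% on the deposited TPM. The list genes were counted at any level, and some of them lay below the level minimum. The shares of the lists are thus not matched in level to these shares of all mRNAs, and are a description. As limma called no mRNA in 26D vs 13D, values of list genes in that contrast are a description. Directions below were the same on the deposited TPM and with median-of-ratios factors unless stated.

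Calls of these genes were also repeated with each of the 6 libraries of a contrast left out in turn, and no log2 fold change of a named call turned its sign. In 13D vs 1D, FLT3 and STMN2 stayed called in all 6 repeats, CEBPB and CHAC1 in the 3 that left out a 1D library, SRXN1 in 2, GPX3 in 1 and CIITA in 0. All mRNAs called in that contrast were 1241, and between 142 (without 13D replicate 2) and 1742 (without 1D replicate 3) in the repeats. In 26D vs 1D, CIITA, SLC40A1 and STMN2 stayed called in 3 of 6, and each lost the call without 1D replicate 1, 26D replicate 1 or 26D replicate 2. CHAC1 stayed called in 1 of 6, without 26D replicate 3.

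Of the 13 other myeloid and granulocyte genes measured, beside MARCO, CTSS and MMP9, 10 had their lowest mean at 13D, and 9 on the deposited TPM. limma called CEBPB, a transcription factor of myeloid cells, lower in 13D vs 1D (log2 fold change -1.47, adjusted p = 0.0209). It called FLT3, a receptor of early progenitors and dendritic cells, higher (2.96, adjusted p = 0.00702). In 26D vs 13D the median log2 fold change of the 13 was 0.65, positive for 12, and it was 0.06 on the deposited TPM. C1QA, a complement chain made by macrophages, had 34.6, 21.8 and 72.9 scaled TPM at 26D, against 8.52, 8.95 and 15.9 at 13D, without overlap. It is not a member, as its libraries of 13D were not all below those of 1D. The myeloid list with its members summed to 221, 419 and 266 scaled TPM at 1D, 274, 290 and 383 at 13D, and 590, 427 and 551 at 26D, so the sum at 13D was not below that at 1D. SPI1, a transcription factor that B cells also express, made up much of this sum.

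In the antigen presentation list, beside CTSS, 6 of 10 others had their lowest mean at 13D, and 5 on the deposited TPM. The 10 had a median log2 fold change of 0.69 in 26D vs 13D, positive for all 10, and of 0.04 on the deposited TPM, positive for 6. CIITA, the activator of MHC class II genes, was called higher at 13D than at 1D (log2 fold change 1.29, limma adjusted p = 0.0355) and likewise at 26D (1.45, limma adjusted p = 0.0224). Neither call held on the deposited TPM.

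Of the 19 other ER stress genes, 13 had their lowest mean at 13D, among them SDF2L1 and HERPUD1, and 2 on the deposited TPM. CHAC1, a glutathione-degrading enzyme induced by ER stress, was called lower at 13D than at 1D (log2 fold change -2.35, limma adjusted p = 0.0246) and likewise at 26D (-2.26, limma adjusted p = 0.0474). The ER chaperone HSPA5 and the factor XBP1 had log2 fold changes of -0.32 and -0.15 in 13D vs 1D, with limma adjusted p = 0.653 and 0.771. The 19 had a median log2 fold change of 0.27 in 26D vs 13D, and of -0.36 on the deposited TPM.

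The metal and oxidative stress list holds HMOX1 and PRDX4. Of its 20 other genes, 12 had their lowest mean at 13D, and 4 on the deposited TPM. limma called GPX3, a secreted peroxidase, and SRXN1, which repairs peroxiredoxins, lower in 13D vs 1D (log2 fold changes -1.52 and -1.60, adjusted p = 0.0359 and 0.0174). It called SLC40A1, the iron exporter, higher in 26D vs 1D (1.83, adjusted p = 0.0161). FTH1, the heavy chain of ferritin, had 1034, 1175 and 1975 scaled TPM at 13D, against 1756, 4488 and 1002 at 1D, and the stages overlapped.

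Of the 18 other neuron and glia genes, 15 had their lowest mean at 13D, and 12 on the deposited TPM. limma called 9 of them lower at 13D than at 1D and 3 lower at 26D. STMN2, a tubulin regulator of neurons, had 27.1, 7.19 and 27.8 scaled TPM at 1D, 0.426, 0.538 and 0.361 at 13D, and 0.455, 0.438 and 2.1 at 26D. Its log2 fold changes against 1D were -4.28 at 13D and -3.78 at 26D (limma adjusted p = 0.00675 and 0.0167). Replicate 3 was the highest library of 26D for STMN2, as it was for UCHL1.

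The Wnt, Notch, Hedgehog and TGF-beta list holds WNT4. Of its 45 other genes, 18 had their lowest mean at 13D, and 3 on the deposited TPM, and limma called 10 lower in each contrast with 1D. The B lineage list holds JCHAIN, and 3 of its 25 other genes had their lowest mean at 13D. Against 1D, limma called 9 of the 25 higher at 13D and 7 higher at 26D. In the proliferation list 0 of 31 genes and in the splicing list 0 of 35 had their lowest mean at 13D, on all 3 scales, and neither list holds a member. Other lists without a member had high shares, such as 12 of 16 smooth muscle, 13 of 21 immediate early and 16 of 26 respiratory chain genes. On the deposited TPM 5 genes of each of these had it. The cholesterol list, also without a member, had 3 of 22. A low share thus did not mark the lists without members.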

How the data were processed

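The authors aligned the clean reads to Cliv_1.0 (STAR 2.6.0c), built transcripts with Cufflinks 2.1.1, combined these by TACO and used Kallisto for quantification. The deposited tables hold TPM per library for 13072 mRNAs, each over 0.5 TPM somewhere, and 19129 lncRNAs, each over 0.1. All columns were used. TPM holds no counts, so edgeR, which the study used, could not be applied.

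TPM was divided by the library median over mRNAs above 0.5 TPM in all 9 libraries. limma 3.58.1 in R 4.3.3 (lmFit, eBayes with trend) was run on log2(scaled TPM + 0.5) with the 6 libraries of each pair of stages, and p-values were adjusted over all 13072 mRNAs (Benjamini-Hochberg). It was tested on simulated data. Each p-value sets a difference between stage means against the spread between squabs. The members, the 32 lists and the tests were chosen with earlier results of these data known. Named genes are the 12 members with the highest ratio and the 5 with the highest mean that have a symbol, list members, called members, shared name stems and those at the limits of the rule. Symbols and gene order come from RefSeq (assembly bColLiv1.pat.W.v2), which matched 12387 mRNA IDs. That assembly is not the files' build, so no coordinates are given, and no sequences were used. Alternatives were other scalings, pseudocounts, filters, level and ratio minimums, no trend, no fold threshold, all 9 libraries in one fit, the replicate block and leaving out each library. Figures were drawn with matplotlib 3.10.9.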

Additional observations from a re-analysis of the deposited data

How the results depend on the processing

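The members depend on the scale, as 69 mRNAs passed after division by library medians and 7 on the deposited TPM, where the median over all mRNAs of the log2 fold change in 26D vs 1D was -0.52. A ratio of at least 1 left 20. With a library left out, 60 to 292 mRNAs passed, where fewer libraries had to be separate. Other level minimums and median-of-ratios factors gave 52 to 88 mRNAs, and on ranks 51 of the 69 members stayed separate. In 26D vs 1D, limma called 2 members lower and 886 mRNAs in all. On the deposited TPM it called 6 members and 1709 mRNAs (67 higher and 1642 lower, against 192 and 694 after scaling), with all 9 libraries in one fit 4 members and 1406 mRNAs, and with a library left out 0 to 4 members and 9 to 1207 mRNAs. The lowest number was without 26D replicate 2, and 18 and 24 mRNAs were called without 1D replicate 1 and 26D replicate 1. The causes were not tested. The replicate number as a block gave 461 mRNAs and 3 members lower. Each library came from a different squab, so the numbers do not pair animals. Same-numbered libraries of 1D and 26D had correlations of -0.225, -0.222 and -0.193 of their deviations. For 1D and 13D these were 0.259, -0.158 and 0.0463, and for 13D and 26D -0.0769, 0.242 and -0.0016. Libraries with unlike numbers had correlations from -0.0113 to 0.23 for 1D and 26D. For 1D and 13D they ranged from -0.27 to 0.227, and for 13D and 26D from -0.19 to 0.159. Whether the numbers mark a shared batch was not tested. Members called higher were 0 in all settings of 26D vs 1D, and the settings not named above gave 2 members lower and 750 to 999 mRNAs. Groups of 3 and values without counts limit what a small gap between stages can show.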

Other observations

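The same rule was applied to the 19129 lncRNAs, and 20 passed, 3 with an NCBI gene ID and 17 with a number of the authors' assembly. The mirrored rule took 175 lncRNAs. Both counts used the library medians of the mRNAs, and the mirrored rule was not run with scaling by the median lncRNA. These 20 were selected by the level at 13D, so their values are a description. The most abundant, G28101, had 1364, 4986 and 1267 scaled TPM at 1D, 644, 285 and 529 at 13D, and 1128, 1045 and 1842 at 26D. Replicate 2 of 1D was far above its stage there, as it was for HMOX1 and MARCO. G8310 had 50.2, 128 and 82.0 scaled TPM at 1D, 13.3, 27.0 and 15.3 at 13D, and 56.7, 52.3 and 149 at 26D, with replicate 3 the highest of 26D. G36832 had 18.1, 14.9 and 20.0 scaled TPM at 1D, 5.12, 2.59 and 1.64 at 13D, and 5.31, 24.9 and 21.7 at 26D, so that 1 library of 26D was close to 13D. With a mean of at least 0.5 TPM, or with scaling by the median lncRNA, 33 lncRNAs passed. On the scale of the median lncRNA, 17 of the 20 were among them.

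Annotated lncRNAs lay within 2 places of 6 members in the RefSeq gene order, MSC, LONRF3, TLR5, MDFIC, PXDC1 and GK, and 0 of these lncRNAs passed the rule. The one near LONRF3, listed as PGRMC1 and a coding gene in other species, had 46.0, 54.1 and 25.9 scaled TPM at 1D, 20.8, 16.8 and 31.5 at 13D, and 42.0, 24.3 and 38.9 at 26D. The other 5 had a mean of at most 0.257 TPM, under the minimum of 2 TPM, so they could not pass whatever their course.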
